A study of Kluyveromyces marxianus and Saccharomyces cerevisiae with 12 samples.

Results

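The comparison described here set *Kluyveromyces marxianus* after 36 h of alcoholic fermentation against the same yeast after 6 h. It used 6 of the 12 samples of the series, chosen by their labels: 3 samples at 36 h and 3 at 6 h, all of strain IWBT Y855. The other 6 samples are of *Saccharomyces cerevisiae* and were not used here. Both groups grew in a medium at 25 °C that held assimilable nitrogen at 200 mg/l, phytosterols at 10 mg/l and sugars at 230 g/l, so time is the one factor that the labels give. The labels call the samples replicates without saying that they came from separate cultures, so that p-values describe only how these samples scatter, a scatter that may be technical. All locus tags in the tables used were KLMA tags, which are those of *K. marxianus*, the labelled species. Of 5319 loci in the tables, 4929 had a mean of at least 1 FPKM over the 6 samples and were tested. FPKM is the number of sequenced fragments scaled to the length of the locus and to the total of the library.

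*K. marxianus* is a yeast that respires and ferments, grows fast, and can use lactose and inulin. In an alcoholic fermentation, yeast cells first divide while nitrogen lasts, and then stop dividing while sugar is still being fermented. In *S. cerevisiae*, cells that stop dividing are known to lower the transcripts of bud growth, secretion and chromosome segregation, and to raise those of stress protection, storage carbohydrates and the use of non-sugar carbon. The gene roles given below are those known from *S. cerevisiae* unless another species is named. FPKM values are relative to a library, so fewer cells of a kind and less RNA per cell cannot be told apart. They do not add up to the same sum in each sample. The median summed FPKM over the tables of a sample was 1.237e+06, 9.268e+05 and 8.458e+05 for 36 h replicates 1, 2 and 3. For the 6 h replicates it was 1.03e+06, 1.077e+06 and 9.858e+05. The values were tested without rescaling, so the log2 changes carry such differences between samples.

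At 36 h, 1048 loci were higher (21.3% of those tested) and 960 were lower (19.5%) by limma on log2(FPKM + 1), at an adjusted p under 0.05 after Benjamini-Hochberg adjustment over all 4929 loci. With 6 h replicate 1 left out the numbers were 1021 higher (20.7%) and 893 lower (18.1%). At least 2-fold changes made up 876 of the rises and 753 of the falls, at least 4-fold changes 248 and 181, and at least 8-fold changes 63 and 58. The median log2 change over all tested loci was -0.0011, with the middle 50% of loci between -0.67 and 0.73. The single values ran from -6.53 for HTB2, a histone H2B gene, to 7.38 for HSP26, a small heat shock protein. All 36 h samples were above all 6 h samples at 1341 loci and below them at 1244. The median SD of a locus between samples, on the log2 scale, was 0.34 at 36 h and 0.30 at 6 h. Without replicate 1 the median 6 h SD was 0.20, but from 2 samples, so it cannot be set directly beside the values from 3. Library depth in units of 1000000 fragments, worked out from the bounds of each FPKM value and approximate, was 4.28, 10.55 and 7.01 for 36 h replicates 1, 2 and 3, and 6.70, 5.36 and 6.59 for the 6 h replicates. The 5.36 rests on 3 of the 7 tables of that sample.

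**Figure D1:**
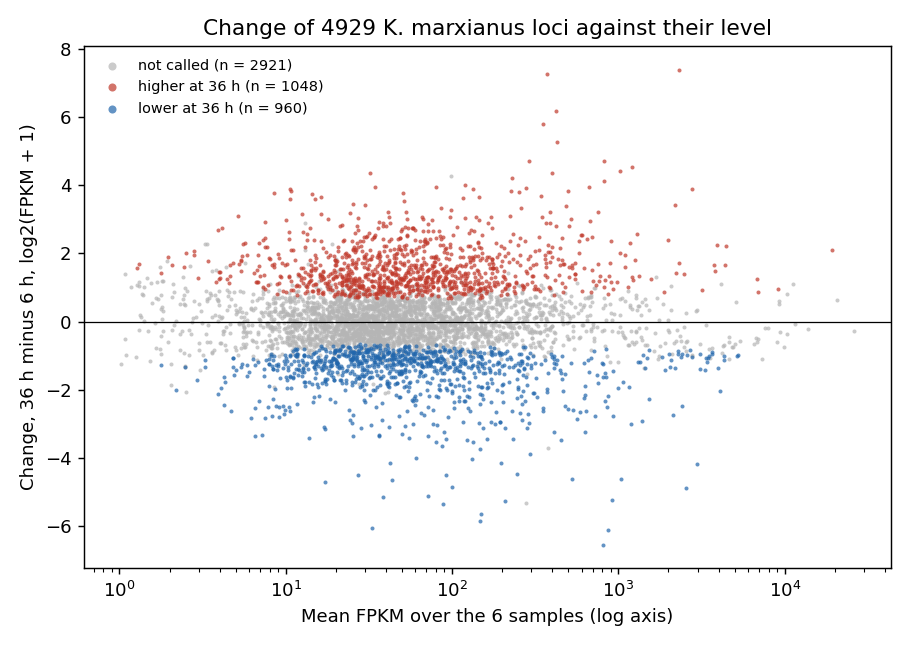
Change of each tested locus, 36 h minus 6 h on the log2(FPKM + 1) scale, against its mean FPKM over the 6 samples on a log axis, 1 point per locus. The 1048 loci called higher (red) and the 960 called lower (blue) lie on both sides of 0 at low and at high levels, and the loci not called (grey) lie around 0.

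Changes were spread over all levels of expression. The tested loci were split by mean FPKM into 5 classes of 985 or 986 loci. In the lowest class, 1.02 to 18.5 FPKM, 165 loci were higher and 174 lower, 16.7% and 17.6%. In the highest class, from 142.6 FPKM upward, 241 were higher and 230 lower, 24.4% and 23.3%. The median size of the change without regard to sign was 0.69, 0.61, 0.64, 0.72 and 0.87 log2 units from the lowest class to the highest. The lowest class depended on the constant added before the logarithm, with a median size of 0.79 at a constant of 0.1 and 0.46 at a constant of 5. In the highest class these values were 0.87 and 0.86. The median signed change of every class stayed between -0.040 and 0.040.

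The most abundant transcripts at 36 h were those of STF2, TDH2, CCW12, KLMA_10040, ENO, RPS28A, AHP1, FBA1, GAP1 (KLMA_40218) and ADH2, in falling order of mean FPKM. The list at 6 h shared 5 loci with it and added KLMA_70391, RPL38, KLMA_10219, RPL29 and HHT1. For KLMA_40218 the *S. cerevisiae* role of the name GAP1 is not assumed here, and its identity was not tested. That name belongs to 2 loci, and KLMA_40218, at 990 nt, is close in length to TDH2, at 996 nt. STF2, a small hydrophilic protein that in *S. cerevisiae* binds the mitochondrial ATPase, had 41525, 23541 and 23114 FPKM at 36 h, against 1784, 12849 and 12399 FPKM at 6 h. The 36 h samples were all above the 6 h samples, and 6 h replicate 1 was far below the other 6 h samples (log2 change 2.104, SE 0.67, adjusted p = 0.029). Its call was lost without 36 h replicate 1 (0.11) and 36 h replicate 2 (0.057) and under 4 other alternatives (0.0502 to 0.092), with adjusted p from the 19 alternatives between 0.0023 and 0.11. AHP1, a thiol peroxidase, had 12131, 13217 and 11037 FPKM at 36 h, against 6319.6, 6354 and 5978 FPKM at 6 h (log2 change 0.96, SE 0.27, adjusted p = 0.016). The groups did not overlap, but its call was lost without 36 h replicate 2 (0.084) and 6 h replicate 2 (0.071), with adjusted p from the 19 alternatives between 0.0035 and 0.084.

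The remaining loci of these lists did not pass the test. TDH2, a glyceraldehyde-3-phosphate dehydrogenase of glycolysis, had 37786, 24308 and 15282 FPKM at 36 h, against 18959.5, 14555 and 13518 FPKM at 6 h (log2 change 0.64, adjusted p = 0.19), and the groups overlapped. It passed without 36 h replicate 3 (0.037), with adjusted p from the 19 alternatives between 0.037 and 0.47, and its log2 change without that sample was 0.97. CCW12, a cell wall mannoprotein, had 24979.9, 30452 and 16444 FPKM at 36 h, against 30594, 29347 and 24437 FPKM at 6 h (log2 change -0.27, adjusted p = 0.52). FBA1, the glycolytic aldolase, had 11918, 12026 and 9620.2 FPKM at 36 h, against 14492, 10080.4 and 10831 FPKM at 6 h (log2 change -0.066, adjusted p = 0.87). These values put glycolytic and wall transcripts at the top of the library at both times, with overlapping groups. For ENO, the enolase, the values were 11292, 14801 and 12855 FPKM at 36 h, against 9821, 6439 and 6379 FPKM at 6 h, with no overlap (log2 change 0.804, adjusted p = 0.054). ADH2, an alcohol dehydrogenase, had 8793, 12965 and 10620.5 FPKM at 36 h, against 10202, 6833 and 6052 FPKM at 6 h (log2 change 0.51, adjusted p = 0.22), and passed under array weights (0.047), with adjusted p from the 19 alternatives between 0.047 and 0.51. RPS28A and RPL38, small ribosomal proteins, averaged 12136 ± 2458 FPKM at 36 h and 15474 ± 7758 FPKM at 6 h and 8379 ± 7031 FPKM at 36 h and 11360.3 ± 2253 FPKM at 6 h (SD, n = 3 each), with adjusted p of 0.72 and 0.26. RPL38 passed without 36 h replicate 1 (0.0094) and under array weights (0.023) and voom (0.017), with adjusted p from the 19 alternatives between 0.0094 and 0.59. Its level was 16490.4, 4629 and 4018 FPKM in the 36 h samples, and its log2 change was -1.38 without the first of them, against -0.73 with all. The log2 change of the other uncalled loci of these lists was 1.10 for KLMA_10040, 0.62 for GAP1 (KLMA_40218), -0.36 for KLMA_70391, -0.59 for KLMA_10219, -1.08 for RPL29 and -0.29 for HHT1. Of these, RPL29 passed without 6 h replicate 3 (0.0045) and under 5 other alternatives (0.01 to 0.048), with adjusted p from the 19 alternatives between 0.0045 and 0.19. KLMA_10219 passed without 6 h replicate 3 (0.044), with adjusted p from the 19 alternatives between 0.044 and 0.61, and its log2 change without that sample was -0.93.

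The 10 highest loci of each library held 16.3%, 18.1% and 15.1% of its summed FPKM at 36 h, against 15.3%, 13.2% and 12.5% at 6 h. The highest 100 held 48.7%, 49.9% and 44.997% at 36 h, against 51.9%, 49.3% and 50.03% at 6 h. In both cases the groups overlapped, and the exact two-sided permutation test over the 6 samples gave p = 0.20. The share held by 64 cytosolic ribosomal protein loci (symbols RPL or RPS with a number, a set chosen after earlier results of these data) was 18.3%, 16.4% and 13.2% at 36 h, against 27.8%, 26.2% and 26.3% at 6 h. Those groups did not overlap, with an exact two-sided permutation p of 0.10, the smallest that 3 samples against 3 can give.

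Called loci were found on all 8 nuclear chromosomes at shares near the 21.3% and 19.5% of all tested loci. Chromosome 6 had the highest share of rises, 25.0% of 541 loci, and the lowest share of falls, 16.5%, with a median log2 change of 0.10. Chromosome 2 had the lowest share of rises, 18.8% of 812 loci, and the highest share of falls, 21.9%, with a median of -0.058. No test was made between chromosomes. With 1 sample left out at a time, chromosome 2 had the highest share of falls in 6 of 6 fits and chromosome 6 the highest share of rises in 4 of 6. The median of chromosome 6 lay between 0.015 and 0.19 over all alternatives, and that of chromosome 2 between -0.19 and 0.057.

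**Figure D2:**
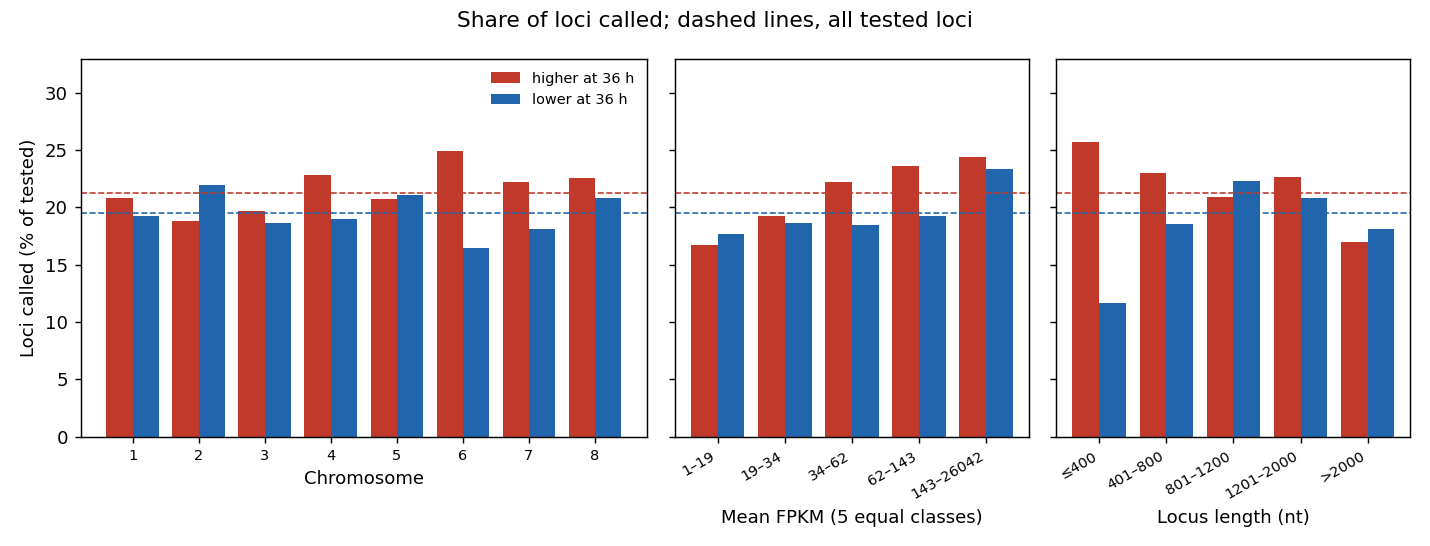
Share of tested loci called higher (red) and lower (blue) at 36 h, in percent, by chromosome (left), by class of mean FPKM (middle) and by locus length in nucleotides (right); dashed lines give the shares over all tested loci, 21.3% higher and 19.5% lower. Shares by chromosome stay close to these lines, and loci up to 400 nt stand out with 25.7% higher and 11.6% lower.

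The largest rise on each chromosome among called loci whose higher group averaged 50 FPKM or more was in GLK1, yciC, SPG4, HSP26, URC1, DBP2, MIN6 and DIM1, on chromosomes 1 to 8 in order. GLK1 is a glucokinase, which phosphorylates glucose at the first step of its use, and had 439, 364 and 502 FPKM at 36 h, against 18.7, 29.8 and 19.95 FPKM at 6 h (log2 change 4.21, SE 0.28, adjusted p = 1e-05). MIN6 (KLMA_70089) had 2383, 1446 and 933 FPKM at 36 h, against 57.8, 61.4 and 48.9 FPKM at 6 h (log2 change 4.702, SE 0.35, adjusted p = 1.6e-05). DBP2, an RNA helicase, had 348, 512 and 532 FPKM at 36 h, against 99.3, 35.4 and 24.9 FPKM at 6 h (log2 change 3.33, SE 0.45, adjusted p = 0.00044). In all of these the groups were well apart, and within 6 h replicate 1 had the highest DBP2 value. DIM1, a methylase of ribosomal RNA, had 128, 84.4 and 68.03 FPKM at 36 h, against 20.2, 4.398 and 3.17 FPKM at 6 h (log2 change 3.55, SE 0.53, adjusted p = 0.00072), again highest in replicate 1 among the 6 h samples. For yciC, SPG4, HSP26 and URC1, the last a gene of uracil catabolism in related yeasts, the log2 changes were 7.24, 5.27, 7.38 and 5.79.

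The matching falls were in STE3, DSE2, LYS4, LYS9, CAX4, HTB2, TUB2 and HHF2. STE3 encodes the receptor for a-factor, the mating pheromone, and had 1.76, 1.51 and 0.517 FPKM at 36 h, against 25.4, 64.6 and 68.6 FPKM at 6 h (log2 change -4.496, SE 0.42, adjusted p = 4.9e-05). LYS4, the homoaconitase of lysine synthesis, had 15.9, 11.1 and 15.8 FPKM at 36 h, against 219.9, 330.5 and 201 FPKM at 6 h (log2 change -4.03, SE 0.28, adjusted p = 1.3e-05). CAX4, a phosphatase that recycles the dolichol carrier of protein glycosylation, had 7.67, 10.1 and 8.03 FPKM at 36 h, against 80.7, 124 and 101 FPKM at 6 h (log2 change -3.41, SE 0.26, adjusted p = 1.7e-05). All 3 were lower in every 36 h sample than in any 6 h sample. The log2 changes of DSE2, LYS9, HTB2, TUB2 and HHF2 were -5.35, -6.12, -6.53, -5.65 and -5.23.

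Loci near the chromosome ends were called lower in a smaller share than those farther in with all 6 samples, a difference that was not tested. Of 118 tested loci within 25 kb of the first or last locus of a chromosome, 27 were higher and 15 lower, 22.9% and 12.7%, with a median log2 change of 0.28. Within 50 kb, 72 of 290 were higher and 50 lower, 24.8% and 17.2%, with a median of 0.18. Beyond either distance, 19.7% were lower. These loci also moved with 6 h replicate 1, whose level lay a median of 0.33 log2 units below the mean of the other 6 h samples within 25 kb, against 0.038 above it farther in. Without that sample, 26 of the 118 were higher and 20 lower, and the median was 0.18. The share of falls was then 16.9% within 25 kb and 18.2% farther in. Its part in the result was not tested otherwise. The longest stretches of neighbouring tested loci called in the same direction held 5 loci, and there were 7 of them. One of falls lay on chromosome 2 from 335033 to 349576 and held KLMA_20154, GFA1, APE1, HSL1 and ADH3. One of rises lay on chromosome 6 from 487444 to 495661 and held NOP15, CYB5, CEX1, DBP2 and RPC19. No count of such stretches expected from unordered calls was computed.

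Short loci were called higher in a larger share than long ones, with no test between length classes. Of 327 tested loci up to 400 nt, 84 were higher and 38 lower, 25.7% and 11.6%, with a median log2 change of 0.32. Of 1121 loci over 2000 nt, 190 were higher and 203 lower, 16.9% and 18.1%, with a median of -0.085. The short loci lay, relative to the mean of the 6 samples, at a median of 0.38, 0.018 and 0.0026 log2 units at 36 h, against -0.23, 0.025 and -0.28 at 6 h. The groups overlapped, since 6 h replicate 2 was above 36 h replicates 2 and 3. In 2 tables, 1 of 6 h replicate 2 and 1 of 36 h replicate 3, short loci stood high against the mean of the same sample's other tables. Their median difference from that mean exceeded that of loci over 1000 nt by 0.55 and 0.735 log2 units. Without those tables the short loci had 78 rises, 40 falls and a median of 0.23. The part of table making in this pattern was not tested further.

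The mitochondrial chromosome had 27 loci, of which 9 reached the mean of 1 FPKM, and none passed the test. At an unadjusted p under 0.05 there was 1, against 2463 over all tested loci, and voom called 0. KLMA_R909 and KLMA_R911 passed without 36 h replicate 2 and with a replicate block, and KLMA_90003 passed with no filter, with no trend and with quantile normalization. Their summed level was 1.48, 155 and 60.5 FPKM at 36 h, against 96.0, 96.2 and 165 FPKM at 6 h. In 36 h replicate 1, the shallowest library, 6 of the 9 were listed at 0, against 1 in 6 h replicate 3 and 0 in the other 4 samples. The part of depth in these 0 values was not tested. Of the 390 loci not tested, 169 were tRNA loci and 338 were listed at 0 in all samples.

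The counts of each gene list below stand beside the 21.3% higher and 19.5% lower among all tested loci. The counts over all tested loci also moved when 1 sample was left out. They were 858 higher and 1023 lower without 36 h replicate 1, 964 and 656 without 36 h replicate 2, and 863 and 786 without 36 h replicate 3. They were 832 and 594 without 6 h replicate 2, and 791 and 829 without 6 h replicate 3. List counts from such a fit stand beside these. Genes of bud growth and division were called lower at 36 h more often than higher. Among the genes of cell separation and the septum, 0 of 29 tested members rose and 16 fell, with a median log2 change of -1.26. Without 6 h replicate 1, 0 rose and 16 fell, with a median of -1.196. DSE1, a protein of the daughter side of the neck, had 2.36, 0.734 and 0.673 FPKM at 36 h, against 51.4, 98.8 and 78.1 FPKM at 6 h (log2 change -5.13, SE 0.36, adjusted p = 1.3e-05). In the actin cytoskeleton, 0 of 28 tested members rose and 21 fell, with a median log2 change of -1.196. The fit without 6 h replicate 1 gave 0 rises, 19 falls and a median of -1.21. With other samples left out, falls ran from 15, without 6 h replicate 2, to 23, without 36 h replicate 1. ACT1, actin itself, had 1123, 709 and 637 FPKM at 36 h, against 2261, 2032 and 1849 FPKM at 6 h (log2 change -1.35, SE 0.303, adjusted p = 0.0059). Its call was lost under voom (0.074), with adjusted p from the 19 alternatives between 0.00053 and 0.074. CAP1, which caps actin filaments, had 40.5, 27.3 and 23.02 FPKM at 36 h, against 165, 164 and 195 FPKM at 6 h, and SLA2, an adaptor of endocytosis, averaged 18.4 ± 6.08 FPKM at 36 h and 102 ± 20.7 FPKM at 6 h (SD, n = 3 each), with log2 changes of -2.52 and -2.44. None of these values overlapped between times.

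Among the genes of tubulin, the spindle and the kinetochore, 3 of 42 tested members rose and 22 fell, with a median log2 change of -0.896. Leaving out 6 h replicate 1 gave 3 rises, 19 falls and a median of -0.91. With other samples left out, falls ran from 17, without 6 h replicate 2, to 23, without 36 h replicate 1. TUB1, alpha-tubulin, had 29.5, 13.2 and 19.1 FPKM at 36 h, against 503, 314 and 304 FPKM at 6 h (log2 change -4.15, SE 0.34, adjusted p = 2.4e-05), and TUB2, beta-tubulin, changed by -5.65. The rises of the list included MCM21, a kinetochore protein, with 99.9, 58.4 and 69.4 FPKM at 36 h, against 25.1, 35.2 and 25.5 FPKM at 6 h (log2 change 1.36, adjusted p = 0.0041), and ASK1, of the outer kinetochore, with a log2 change of 1.64 (adjusted p = 0.0093). The ASK1 call was lost under the first table of each sample (0.15). Its adjusted p lay between 0.0021 and 0.15 over the alternatives that tested it, which leave out the filter at 10 FPKM. In the mitotic exit and anaphase genes, 3 of 33 tested members rose and 13 fell, with a median log2 change of -0.36. With 6 h replicate 1 left out there were 3 rises and 11 falls (median -0.42). CLB2, a mitotic cyclin, had 2.24, 1.42 and 4.45 FPKM at 36 h, against 49.9, 25.7 and 17.7 FPKM at 6 h (log2 change -3.07, SE 0.43, adjusted p = 0.0005). CDC20, an activator of the anaphase-promoting complex, had 1.29, 1.09 and 1.605 FPKM at 36 h, against 17.5, 17.1 and 10.6 FPKM at 6 h (log2 change -2.76, SE 0.34, adjusted p = 0.00024). SWI5, a transcription factor of late mitosis, went the other way, with 71.9, 129 and 168 FPKM at 36 h, against 30.999, 18.1 and 9.41 FPKM at 6 h (log2 change 2.66, SE 0.43, adjusted p = 0.0011), as did APC11, a subunit of that complex, with a log2 change of 1.61 (adjusted p = 0.0016).

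**Figure D3:**
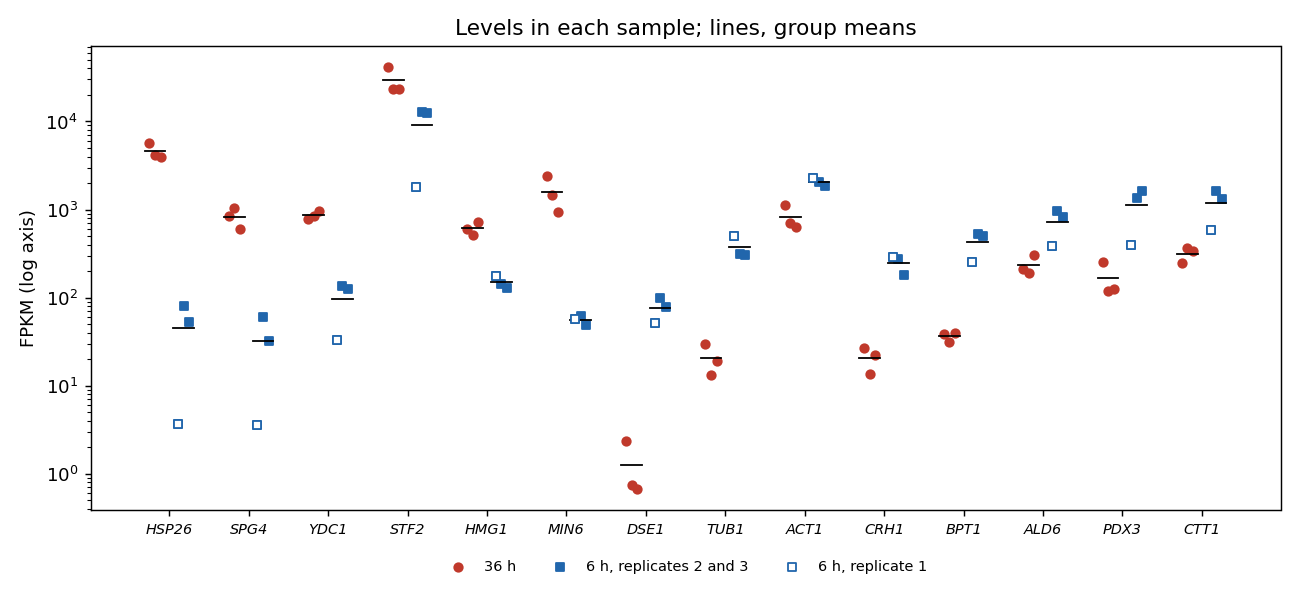
FPKM of 14 of the named loci in each sample on a log axis, 36 h samples as red circles and 6 h samples as blue squares, with 6 h replicate 1 as an open square and lines at the group means. HSP26, SPG4, YDC1, STF2, HMG1 and MIN6 are higher at 36 h and the other 8 are lower, and the open square lies lowest of the 6 h samples in HSP26, SPG4, YDC1 and STF2 and in DSE1, BPT1, ALD6, PDX3 and CTT1.

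Genes of the secretory pathway were also called lower more often than higher. Among genes of secretion and vesicle coats, 2 of 45 tested members rose and 25 fell, with a median log2 change of -0.99. There were 3 rises and 22 falls without 6 h replicate 1 (median -0.85). The counts moved to 1 rise without each of 36 h replicate 2, 6 h replicate 2 and 6 h replicate 3. Falls ran from 20, without 36 h replicate 2, to 27, without 36 h replicate 1. BET1, a SNARE of transport between the endoplasmic reticulum and the Golgi, had 6.95, 11.2 and 9.55 FPKM at 36 h, against 51.8, 53.8 and 46.3 FPKM at 6 h (log2 change -2.36, SE 0.26, adjusted p = 0.00013). BET5, a subunit of the TRAPP tethering complex, was listed at 0 in each 36 h sample, against 68.0, 76.1 and 54.7 FPKM at 6 h. An exact 0 can be a failed estimate here, so whether BET5 fell is uncertain. TRS23, another TRAPP subunit, rose, with 129, 153 and 151 FPKM at 36 h, against 37.3, 39.6 and 39.1 FPKM at 6 h (log2 change 1.87, SE 0.24, adjusted p = 0.00028). The other rise was SEC17, the alpha-SNAP of membrane fusion (log2 change 0.89, adjusted p = 0.019), whose call was lost without 36 h replicate 2 (0.054), 6 h replicate 2 (0.08) and 6 h replicate 3 (0.071) and under the replicate block (0.051), with adjusted p from the 19 alternatives between 0.0058 and 0.08. For glycosylation, 2 of 47 tested members rose and 21 fell, with a median log2 change of -0.74. When 6 h replicate 1 was left out, 3 rose and 18 fell (median -0.53). Other samples also moved these counts, to 1 rise without each of 36 h replicate 1, 6 h replicate 2 and 6 h replicate 3. Falls ran from 16, without 36 h replicate 2 or 6 h replicate 2, to 23, without 6 h replicate 3. WBP1 and SWP1, subunits of the oligosaccharyltransferase, had log2 changes of -2.28 and -2.19, with WBP1 at 23.5, 14.6 and 18.8 FPKM at 36 h, against 103, 98.4 and 83.5 FPKM at 6 h. ALG1, a mannosyltransferase of the lipid-linked sugar chain, was called higher (log2 change 1.02, adjusted p = 0.023), a call lost without 36 h replicate 1 (0.069), 6 h replicate 2 (0.073) and 6 h replicate 3 (0.096), with adjusted p from the 19 alternatives between 0.0052 and 0.096.

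In the folding and translocation genes of the endoplasmic reticulum, 1 of 36 tested members rose and 9 fell, with a median log2 change of -0.39. On the 5 other samples alone, without 6 h replicate 1, 1 rose and 9 fell (median -0.31). Counts changed to 2 rises without 36 h replicate 3. CNE1, calnexin, had 33.3, 9.91 and 18.1 FPKM at 36 h, against 98.1, 99.8 and 88.8 FPKM at 6 h (log2 change -2.32, SE 0.37, adjusted p = 0.001). SBH1, a subunit of the Sec61 channel, averaged 146 ± 56.1 FPKM at 36 h and 596 ± 179 FPKM at 6 h (SD, n = 3 each; log2 change -2.05). The 1 rise was HAC1, the transcription factor of the unfolded protein response, with 5303, 2054 and 3539 FPKM at 36 h, against 1129, 1461 and 1316 FPKM at 6 h (log2 change 1.38, SE 0.36, adjusted p = 0.012). FPKM of a locus does not tell spliced from unspliced HAC1 RNA. In the cell wall glucan and chitin genes, 3 of 34 tested members rose and 13 fell, with a median log2 change of -0.29. In the fit that omits 6 h replicate 1, 3 rose and 10 fell (median -0.21). Single samples mattered, with 1 rise without each of 36 h replicate 1, 6 h replicate 2 and 6 h replicate 3. CRH1, which joins chitin to glucan, had 26.7, 13.5 and 22.3 FPKM at 36 h, against 286, 272 and 179.8 FPKM at 6 h (log2 change -3.52, SE 0.32, adjusted p = 4.4e-05). SCW10 and SCW4, related wall proteins of the glucanase type, moved in opposite directions. SCW10 had 103, 49.8 and 43.4 FPKM at 36 h, against 597, 456 and 336 FPKM at 6 h (log2 change -2.87, adjusted p = 0.00031), and SCW4 had 93.9, 45.2 and 45.6 FPKM at 36 h, against 40.5, 15.9 and 6.998 FPKM at 6 h (log2 change 1.73, adjusted p = 0.025), the call of SCW4 being lost without 36 h replicate 1 (0.11), 6 h replicate 2 (0.053) and 6 h replicate 3 (0.076), with adjusted p from the 19 alternatives between 0.00055 and 0.11. CHS1, a chitin synthase that repairs the wall after separation, rose, with 178, 138 and 192 FPKM at 36 h, against 53.3, 57.6 and 46.6 FPKM at 6 h (log2 change 1.66, SE 0.26, adjusted p = 0.00079).

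Among the ergosterol genes, 2 of 25 tested members rose and 12 fell, with a median log2 change of -0.895. Without 6 h replicate 1, 4 rose and 11 fell, with a median of -0.57. The median of this list lay 0.63 log2 units higher in 6 h replicate 1 than in the other 6 h samples. ERG8, phosphomevalonate kinase, had 9.35, 6.49 and 8.23 FPKM at 36 h, against 81.9, 77.02 and 66.5 FPKM at 6 h (log2 change -3.08, SE 0.25, adjusted p = 2.3e-05). ERG4, of the last step, averaged 60.7 ± 8.64 FPKM at 36 h and 239.5 ± 77.3 FPKM at 6 h (SD, n = 3 each; log2 change -1.92). HMG1, the HMG-CoA reductase that controls the pathway, rose, with 600.2, 517 and 715 FPKM at 36 h, against 177, 141 and 128 FPKM at 6 h (log2 change 2.03, SE 0.27, adjusted p = 0.0004), and so did ERG5, a C-22 desaturase, with 1088, 822 and 1173 FPKM at 36 h, against 419.7, 355 and 302 FPKM at 6 h (log2 change 1.51, SE 0.28, adjusted p = 0.0023). ERG11, the lanosterol demethylase, had 178, 122 and 164 FPKM at 36 h, against 367, 154 and 112 FPKM at 6 h (log2 change -0.28, adjusted p = 0.62), with its highest value in 6 h replicate 1, and its log2 change without that sample was 0.22. ERG3, a sterol desaturase, had 851, 759 and 863 FPKM at 36 h, against 881, 416 and 307 FPKM at 6 h (log2 change 0.77, adjusted p = 0.13), and passed the test without 6 h replicate 1 (0.0092) and under array weights (0.014), with adjusted p from the 19 alternatives between 0.0092 and 0.41.

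Other lipid lists were small or split. For sphingolipid synthesis, 5 of 17 tested members rose and 0 fell, with a median log2 change of 0.58. The fit without 6 h replicate 1 gave 6 rises, 0 falls and a median of 0.61. There was 1 fall without each of 36 h replicate 1 and 6 h replicate 3. YDC1, a ceramidase, had 786, 852 and 972 FPKM at 36 h, against 32.7, 135 and 125 FPKM at 6 h (log2 change 3.38, SE 0.48, adjusted p = 0.00052), and LCB5, a kinase of long-chain bases, had 192, 263 and 255 FPKM at 36 h, against 62.9, 70.8 and 58.4 FPKM at 6 h (log2 change 1.86, SE 0.26, adjusted p = 0.00047). For phospholipid synthesis, 5 of 24 tested members rose (20.8%) and 4 fell (16.7%), near the shares of all tested loci, with a median log2 change of 0.087. Leaving out 6 h replicate 1 gave 5 rises, 2 falls and a median of 0.099. Leaving out other samples gave 3 rises without each of 36 h replicate 3 and 6 h replicate 3 and 2 falls without each of 36 h replicate 2, 36 h replicate 3 and 6 h replicate 2. INO1, which makes inositol phosphate, and ITR1, which imports inositol, had log2 changes of 4.72 and 1.97. CHO1 and OPI3, of the route to phosphatidylcholine, had changes of -1.42 and -2.03. OPI3 had 303, 153 and 123 FPKM at 36 h, against 865, 671 and 684 FPKM at 6 h. For fatty acid synthesis and desaturation, 1 of 17 tested members rose and 2 fell, with a median log2 change of -0.15. With 6 h replicate 1 left out there was 1 rise and 2 falls (median -0.085). These counts became 2 rises without 36 h replicate 2. The OLE1 locus KLMA_10244, a delta-9 desaturase, had 3379, 2336 and 4017 FPKM at 36 h, against 1314, 1418 and 900.2 FPKM at 6 h (log2 change 1.41, SE 0.32, adjusted p = 0.0062), and the OLE1 locus KLMA_30418 had 153, 128 and 178 FPKM at 36 h, against 90.3, 110.5 and 87.4 FPKM at 6 h (log2 change 0.66, adjusted p = 0.063) and passed under 3 alternatives (0.034 to 0.048), with adjusted p from the 19 alternatives between 0.034 and 0.19. ELO3, an elongase, fell (log2 change -2.198, adjusted p = 0.0014), as did PHS1, a dehydratase of the same cycle (log2 change -0.97, adjusted p = 0.011). FAS1 and ACC1, of the synthesis of palmitate, had log2 changes of -0.29 and -0.15, with adjusted p of 0.52 and 0.66.

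For beta-oxidation and peroxisomes, 6 of 36 tested members rose (16.7%) and 5 fell (13.9%), with a median log2 change of 0.28. Both shares were below the 21.3% and 19.5% of all tested loci. There were 4 rises and 7 falls without 6 h replicate 1 (median 0.25). They shifted to 3 falls without each of 36 h replicate 1, 36 h replicate 2, 6 h replicate 2 and 6 h replicate 3. YAT2 and YAT1, carnitine acetyltransferases that move acetyl units between compartments, rose, YAT2 with 52.6, 56.4 and 67.4 FPKM at 36 h, against 13.2, 13.8 and 15.01 FPKM at 6 h (log2 change 1.99, SE 0.24, adjusted p = 0.0002) and YAT1 with a log2 change of 1.25. PEX6 and PEX8, factors of peroxisome assembly, fell, with log2 changes of -2.34 and -1.68. Among genes of gluconeogenesis and the glyoxylate cycle, 6 of 18 tested members rose and 1 fell, with a median log2 change of 0.53. When 6 h replicate 1 was left out, 6 rose and 1 fell (median 0.34). The counts moved to 0 falls without each of 36 h replicate 2, 6 h replicate 2 and 6 h replicate 3. MDH2, cytosolic malate dehydrogenase, had 1230.1, 779 and 1104 FPKM at 36 h, against 192, 194 and 145 FPKM at 6 h (log2 change 2.53, SE 0.29, adjusted p = 0.00016). CIT2, a peroxisomal citrate synthase, had 2161, 1439 and 1333 FPKM at 36 h, against 379 to 425 FPKM over the 6 h samples (log2 change 2.0003, SE 0.29, adjusted p = 0.00055).

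Among acetate, acetaldehyde and alcohol dehydrogenases and related enzymes, 12 of 31 tested members rose and 5 fell, with a median log2 change of 0.45. On the 5 other samples alone, without 6 h replicate 1, 11 rose and 5 fell (median 0.44). SFA1, which oxidises formaldehyde and reduces aldehydes, had 1784, 585 and 609 FPKM at 36 h, against 173, 171 and 155 FPKM at 6 h (log2 change 2.37, SE 0.41, adjusted p = 0.0016), and ADH4 had a log2 change of 6.16. ALD6, the cytosolic aldehyde dehydrogenase that makes acetate, fell, with 214, 190.2 and 306 FPKM at 36 h, against 389, 951 and 814 FPKM at 6 h (log2 change -1.53, SE 0.37, adjusted p = 0.0089). Of the 6 h samples, replicate 1 was lowest but above every 36 h sample. ACS2, which activates acetate to acetyl-CoA, rose, with 1475, 913 and 1125 FPKM at 36 h, against 549, 545 and 397 FPKM at 6 h (log2 change 1.22, SE 0.296, adjusted p = 0.0087). Its paralogue ACS1 had 10.5, 8.24 and 9.42 FPKM at 36 h, against 5.01, 6.87 and 6.51 FPKM at 6 h (log2 change 0.55, adjusted p = 0.16), and ALD4, the mitochondrial aldehyde dehydrogenase, had 13.3, 7.81 and 11.5 FPKM at 36 h, against 5.17, 10.5 and 9.103 FPKM at 6 h (log2 change 0.38, adjusted p = 0.39). ALD2 was called lower (log2 change -0.91, adjusted p = 0.024), a call lost without 36 h replicate 2 (0.06), 36 h replicate 3 (0.092) and 6 h replicate 2 (0.097), with adjusted p from the 19 alternatives between 0.0023 and 0.097.

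In the pentose phosphate pathway, 1 of 12 tested members rose and 2 fell, with a median log2 change of 0.16. In the fit that omits 6 h replicate 1, 0 rose and 2 fell (median 0.15). Other samples also moved these counts, to 0 rises without each of 36 h replicate 1 and 36 h replicate 2 and 4 falls without 36 h replicate 1. Its median ran from -0.065 to 0.34 with 1 sample left out at a time. ZWF1, glucose-6-phosphate dehydrogenase, had 133, 94.8 and 117 FPKM at 36 h, against 207, 313 and 281 FPKM at 6 h (log2 change -1.202, SE 0.28, adjusted p = 0.0069), and SOL1, of the lactonase family of the next step, had a log2 change of -1.02. XYL2, xylitol dehydrogenase, had 1265, 1056 and 889.97 FPKM at 36 h, against 201, 541 and 681 FPKM at 6 h (log2 change 1.33, adjusted p = 0.03), with 6 h replicate 1 lowest, and its call was lost without 36 h replicate 1 (0.092), 36 h replicate 2 (0.074) and 6 h replicate 1 (0.061), with adjusted p from the 19 alternatives between 0.013 and 0.092. For lactose, galactose and inulin use, 3 of 12 tested members rose and 2 fell, with a median log2 change of -0.053. Without 6 h replicate 1, 2 rose and 3 fell, with a median of -0.14. Counts changed to 1 fall without each of 36 h replicate 2, 36 h replicate 3, 6 h replicate 2 and 6 h replicate 3. LAC4, the beta-galactosidase, had 19.9, 16.5 and 23.9 FPKM at 36 h, against 12.4, 14.1 and 9.01 FPKM at 6 h (log2 change 0.72, adjusted p = 0.06), with no overlap between times, and passed the test under 4 alternatives (0.017 to 0.048), with adjusted p from the 19 alternatives between 0.017 and 0.2. Of 4 loci named LAC12, the lactose permease, KLMA_30010, the locus next to LAC4, rose, with 114, 75.4 and 110.04 FPKM at 36 h, against 19.2, 22.03 and 23.5 FPKM at 6 h (log2 change 2.14, SE 0.26, adjusted p = 0.00022). The other LAC12 loci, KLMA_20830, KLMA_30728 and KLMA_80005, had log2 changes of -0.66, 0.063 and 0.18 and did not pass. KLMA_20830 passed without 6 h replicate 1 (0.013) and under array weights (0.018), with adjusted p from the 19 alternatives between 0.013 and 0.64, and its log2 change without 6 h replicate 1 was -1.22. Reads shared between these related copies could be split among them. PGU1, a pectinase of *Kluyveromyces*, had 423, 191 and 194 FPKM at 36 h, against 13.9, 27.4 and 17.7 FPKM at 6 h (log2 change 3.65, SE 0.37, adjusted p = 7.9e-05). GAL4, the activator of the galactose genes, fell (log2 change -1.78, adjusted p = 0.0064). GAL80, its repressor, was called higher (log2 change 0.82, adjusted p = 0.0496) and GAL1, galactokinase, lower (log2 change -0.95, adjusted p = 0.038). The GAL80 call was lost without each of 36 h replicate 1, 36 h replicate 3, 6 h replicate 1, 6 h replicate 2 and 6 h replicate 3 (0.068 to 0.15) and under 7 other alternatives (0.051 to 0.15), with adjusted p from the 19 alternatives between 0.013 and 0.15. The GAL1 call was lost without each of 36 h replicate 2, 36 h replicate 3, 6 h replicate 2 and 6 h replicate 3 (0.083 to 0.14) and under the first table of each sample (0.068), with adjusted p from the 19 alternatives between 0.0021 and 0.14.

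Stress genes did not move as 1 group. In heat shock proteins and chaperones, 2 of 21 tested members rose and 9 fell, with a median log2 change of -0.15. The fit without 6 h replicate 1 gave 1 rise, 9 falls and a median of -0.21. Single samples mattered, with 1 rise without each of 36 h replicate 1, 36 h replicate 2, 6 h replicate 2 and 6 h replicate 3, 4 falls without 36 h replicate 2 and 5 falls without each of 36 h replicate 3 and 6 h replicate 2. HSP26 had 5729, 4114 and 3998 FPKM at 36 h, against 3.63, 79.7 and 53.05 FPKM at 6 h (log2 change 7.38, SE 0.85, adjusted p = 0.00016), with 6 h replicate 1 more than 10-fold below the other 6 h samples. SSA2, a cytosolic Hsp70, fell, with 77.5, 48.5 and 68.5 FPKM at 36 h, against 683, 481 and 382 FPKM at 6 h (log2 change -2.96, SE 0.31, adjusted p = 9.8e-05). SIS1, its J-domain partner, fell too (log2 change -2.01, adjusted p = 0.00053). HSP104, the disaggregase, had 77.1, 51.9 and 54.03 FPKM at 36 h, against 72.7, 104 and 115 FPKM at 6 h (log2 change -0.66, adjusted p = 0.087) and passed the test without 36 h replicate 1 (0.045) and 6 h replicate 1 (0.037) and under 3 other alternatives (0.0082 to 0.049), with adjusted p from the 19 alternatives between 0.0082 and 0.25. HSP12, a membrane-bound stress protein, was called lower, with 3358, 1365 and 1603 FPKM at 36 h, against 2829, 5183 and 5991 FPKM at 6 h (log2 change -1.19, adjusted p = 0.041), although the groups overlapped. Its call was lost without each of 36 h replicate 2, 36 h replicate 3, 6 h replicate 2 and 6 h replicate 3 (0.098 to 0.16) and under the first table of each sample (0.086) and quantile normalization (0.082), with adjusted p from the 19 alternatives between 0.0016 and 0.16. MDJ1, the mitochondrial J-domain protein, was called higher (log2 change 0.76, adjusted p = 0.038), a call lost without each of 36 h replicate 1, 36 h replicate 2, 36 h replicate 3, 6 h replicate 1, 6 h replicate 2 and 6 h replicate 3 (0.0503 to 0.09) and under the first table of each sample (0.068) and the replicate block (0.088), with adjusted p from the 19 alternatives between 0.021 and 0.09.

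Among trehalose and glycogen genes, 2 of 12 tested members rose and 1 fell, with a median log2 change of -0.26. Leaving out 6 h replicate 1 gave 2 rises, 0 falls and a median of -0.46. There was 1 rise without each of 36 h replicate 1, 36 h replicate 2, 36 h replicate 3, 6 h replicate 2 and 6 h replicate 3 and 0 falls without each of 36 h replicate 2 and 6 h replicate 2. Its median ran from -0.46 to 0.034 with 1 sample left out at a time. NTH1, which breaks trehalose down, had 146, 149 and 205 FPKM at 36 h, against 58.9, 75.3 and 61.9 FPKM at 6 h (log2 change 1.33, SE 0.26, adjusted p = 0.0032). TPS1 and TPS2, which make trehalose, averaged 262 ± 54.3 FPKM at 36 h and 299.5 ± 31.5 FPKM at 6 h and 102 ± 30.7 FPKM at 36 h and 119 ± 26.6 FPKM at 6 h (SD, n = 3 each), with adjusted p of 0.57 for both. TPS3, a regulatory subunit of the same enzyme, was called higher (log2 change 0.76, adjusted p = 0.037) and UGP1, which makes UDP-glucose, lower (log2 change -1.37, adjusted p = 0.033). The TPS3 call was lost without each of 36 h replicate 1, 36 h replicate 2, 36 h replicate 3, 6 h replicate 2 and 6 h replicate 3 (0.051 to 0.13) and under the first table of each sample (0.072) and the replicate block (0.083), with adjusted p from the 19 alternatives between 0.013 and 0.13. The UGP1 call was lost without 36 h replicate 2 (0.092), 6 h replicate 1 (0.076) and 6 h replicate 2 (0.081) and under the first table of each sample (0.051), with adjusted p from the 19 alternatives between 0.0061 and 0.092. For oxidative stress defence, 6 of 26 tested members rose and 6 fell, 23.1% each, with a median log2 change of -0.397. The shares over all tested loci were 21.3% and 19.5%. With 6 h replicate 1 left out there were 5 rises and 6 falls (median -0.48). Leaving out other samples gave 10 falls without 36 h replicate 1 and 3 falls without each of 36 h replicate 2, 36 h replicate 3, 6 h replicate 2 and 6 h replicate 3. The catalases moved apart. CTA1, the peroxisomal catalase, had 78.5, 97.5 and 139.6 FPKM at 36 h, against 20.03, 27.1 and 19.1 FPKM at 6 h (log2 change 2.18, SE 0.29, adjusted p = 0.00036), and CTT1, the cytosolic catalase, had 249.7, 363 and 336 FPKM at 36 h, against 592, 1632 and 1323 FPKM at 6 h (log2 change -1.79, SE 0.39, adjusted p = 0.0049). PRX1, a mitochondrial peroxiredoxin, rose (log2 change 1.33, adjusted p = 0.0035), and GSH2, glutathione synthetase, fell (log2 change -1.21, adjusted p = 0.0053). SOD1 had 1732, 981 and 867 FPKM at 36 h, against 1835, 2250.4 and 2174 FPKM at 6 h (log2 change -0.87, adjusted p = 0.054) and passed the test without 36 h replicate 1 (0.0092) and under 4 other alternatives (0.0039 to 0.049), with adjusted p from the 19 alternatives between 0.0039 and 0.17.

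For glycerol and osmotic stress, 4 of 22 tested members rose and 5 fell, with a median log2 change of -0.096. There were 2 rises and 3 falls without 6 h replicate 1 (median -0.052). These counts became 1 rise without each of 36 h replicate 3 and 6 h replicate 3, 2 rises without 6 h replicate 2 and 3 falls without each of 36 h replicate 1, 36 h replicate 2 and 6 h replicate 2. GUT1 and GUT2, which take glycerol back into metabolism, fell, GUT2 with 21.6, 13.5 and 13.8 FPKM at 36 h, against 50.6, 88.4 and 100.1 FPKM at 6 h (log2 change -2.19, SE 0.32, adjusted p = 0.0006) and GUT1 with a log2 change of -1.66. GPD1, the enzyme of glycerol synthesis, had 935, 728 and 1325 FPKM at 36 h, against 462, 519.9 and 412 FPKM at 6 h (log2 change 1.06, adjusted p = 0.018), and its paralogue GPD2 had 2.73, 6.45 and 9.63 FPKM at 36 h, against 1.51, 2.08 and 1.63 FPKM at 6 h (log2 change 1.29, adjusted p = 0.04). The GPD1 call was lost without 36 h replicate 3 (0.068) and 6 h replicate 3 (0.064), with adjusted p from the 19 alternatives between 0.006 and 0.068. The GPD2 call was lost without each of 36 h replicate 2, 36 h replicate 3, 6 h replicate 1, 6 h replicate 2 and 6 h replicate 3 (0.073 to 0.16). Its adjusted p lay between 0.0074 and 0.16 over the alternatives that tested it, which leave out the filter at 10 FPKM. In the quiescence and stationary phase list, 5 of 12 tested members rose and 2 fell, with a median log2 change of 0.47. When 6 h replicate 1 was left out, 5 rose and 2 fell (median 0.22). They shifted to 1 fall without each of 36 h replicate 2, 36 h replicate 3, 6 h replicate 2 and 6 h replicate 3. SPG4, needed for survival in stationary phase, had 834, 1052 and 599.7 FPKM at 36 h, against 3.601, 60.2 and 31.8 FPKM at 6 h (log2 change 5.27, SE 0.75, adjusted p = 0.00055). PIR3, a wall protein, fell, with 62.5, 40.1 and 38.1 FPKM at 36 h, against 501, 248 and 205 FPKM at 6 h (log2 change -2.66, SE 0.37, adjusted p = 0.00046).

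In the vacuole, 9 of 17 subunits of the proton pump were lower. For the vacuolar H+-ATPase, 0 of 17 tested members rose and 9 fell, with a median log2 change of -0.75. On the 5 other samples alone, without 6 h replicate 1, 0 rose and 10 fell (median -0.78). The counts moved to 5 falls without each of 36 h replicate 2 and 6 h replicate 2. VMA2 had 131, 116 and 124 FPKM at 36 h, against 289.6, 343 and 314 FPKM at 6 h (log2 change -1.34, SE 0.25, adjusted p = 0.0022). VMA8 had 161, 59.02 and 70.3 FPKM at 36 h, against 169.7, 263 and 295 FPKM at 6 h (log2 change -1.42, adjusted p = 0.016), a call lost without 36 h replicate 2 (0.063), 36 h replicate 3 (0.052) and 6 h replicate 3 (0.053), with adjusted p from the 19 alternatives between 0.00054 and 0.063. Among vacuolar hydrolases, 1 of 15 tested members rose and 5 fell, with a median log2 change of -0.504. In the fit that omits 6 h replicate 1, 1 rose and 5 fell (median -0.37). Other samples also moved these counts, to 3 falls without each of 36 h replicate 2 and 6 h replicate 2. APE1, an aminopeptidase, had 54.8, 25.2 and 30.3 FPKM at 36 h, against 156, 470.1 and 287 FPKM at 6 h (log2 change -2.95, SE 0.42, adjusted p = 0.00055), and DAP2, a dipeptidyl aminopeptidase, had a log2 change of -2.40. PRB1, proteinase B, rose, with 1095, 1068 and 1283 FPKM at 36 h, against 242, 439 and 425 FPKM at 6 h (log2 change 1.68, SE 0.31, adjusted p = 0.0021), while PEP4, proteinase A, had 1208, 674 and 1028 FPKM at 36 h, against 1124, 1632 and 1587 FPKM at 6 h (log2 change -0.599, adjusted p = 0.15) and passed under array weights (0.025), with adjusted p from the 19 alternatives between 0.025 and 0.46. For autophagy, 6 of 28 tested members rose and 2 fell, with a median log2 change of -0.065. Without 6 h replicate 1, 4 rose and 4 fell, with a median of -0.13. Counts changed to 1 fall without 36 h replicate 1, 0 falls without each of 36 h replicate 2 and 6 h replicate 2 and 4 falls without 36 h replicate 3. ATG21 rose (log2 change 1.202, adjusted p = 0.0047). ATG1, the starting kinase, had 518, 379 and 458 FPKM at 36 h, against 58.5, 239 and 197 FPKM at 6 h (log2 change 1.67, adjusted p = 0.017), a call lost without 36 h replicate 1 (0.063), with adjusted p from the 19 alternatives between 0.0029 and 0.063. ATG8, the tag of the autophagosome membrane, had 248, 63.5 and 168 FPKM at 36 h, against 79.9, 141 and 43.1 FPKM at 6 h (log2 change 0.805, adjusted p = 0.24), with overlapping groups. ATG8 passed without 36 h replicate 2 (0.0499), with adjusted p from the 19 alternatives between 0.0499 and 0.65, and its log2 change without that sample was 1.36. ATG13 and VPS34 were called lower, with log2 changes of -1.07 and -0.89. The ATG13 call was lost without 36 h replicate 1 (0.08), 36 h replicate 2 (0.094) and 6 h replicate 2 (0.11) and under the first table of each sample (0.071), with adjusted p from the 19 alternatives between 0.0074 and 0.11. The VPS34 call was lost without 36 h replicate 1 (0.056), 36 h replicate 2 (0.071) and 6 h replicate 2 (0.13) and under the first table of each sample (0.051), with adjusted p from the 19 alternatives between 0.0045 and 0.13.

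Nucleotide lists held rises and falls. For purine synthesis, 4 of 22 tested members rose and 8 fell, with a median log2 change of -0.55. The fit without 6 h replicate 1 gave 4 rises, 7 falls and a median of -0.39. AAH1, adenine deaminase, had 126, 115 and 109 FPKM at 36 h, against 31.3, 9.83 and 6.999 FPKM at 6 h (log2 change 3.06, SE 0.44, adjusted p = 0.0006), and PRS1, which makes the ribose phosphate donor, rose (log2 change 1.42, adjusted p = 0.0047). ADE3 and ADE8 fell, with log2 changes of -1.65 and -1.50. For pyrimidine synthesis and salvage, 9 of 21 tested members rose and 3 fell, with a median log2 change of 0.603. Leaving out 6 h replicate 1 gave 11 rises, 3 falls and a median of 0.99. URC1 had 879.6, 576 and 625 FPKM at 36 h, against 5.59, 16.2 and 15.6 FPKM at 6 h (log2 change 5.79, SE 0.38, adjusted p = 1e-05). URA7, CTP synthase, had 339, 190.2 and 244 FPKM at 36 h, against 154, 73.7 and 51.6 FPKM at 6 h (log2 change 1.57, SE 0.401, adjusted p = 0.011), with 6 h replicate 1 highest of its group. URA4 and URA5, of the main route to UMP, fell, with log2 changes of -1.28 and -1.22. For thiamine, biotin, pyridoxine and NAD, 3 of 29 tested members rose and 5 fell, with a median log2 change of -0.13. With 6 h replicate 1 left out there were 2 rises and 7 falls (median -0.32). Single samples mattered, with 3 falls without each of 36 h replicate 2, 36 h replicate 3 and 6 h replicate 3 and 2 falls without 6 h replicate 2. Its median ran from -0.41 to 0.039 with 1 sample left out at a time. PDX3, which makes pyridoxal phosphate, had 253, 118 and 124 FPKM at 36 h, against 393, 1337 and 1629 FPKM at 6 h (log2 change -2.61, SE 0.52, adjusted p = 0.0033), and BUD16, a pyridoxal kinase, had 18.2, 13.6 and 18.8 FPKM at 36 h, against 87.4, 131 and 119.98 FPKM at 6 h (log2 change -2.67, SE 0.26, adjusted p = 6.8e-05). THI20 and NMA2, of thiamine and NAD synthesis, rose, with log2 changes of 3.11 and 1.82.

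Mitochondrial lists held rises and falls, as the tested loci as a whole did (21.3% and 19.5%). For mitochondrial import and the inner membrane, 11 of 46 tested members rose (23.9%) and 4 fell (8.7%), with a median log2 change of 0.19. There were 9 rises and 3 falls without 6 h replicate 1 (median 0.26). There were 7 rises without 6 h replicate 2, 1 fall without 36 h replicate 1, 2 falls without 36 h replicate 2 and 0 falls without 6 h replicate 2. TIM54, of the carrier translocase, had 144, 89.3 and 116 FPKM at 36 h, against 24.1, 20.9 and 18.9 FPKM at 6 h (log2 change 2.38, SE 0.26, adjusted p = 0.00014), and TIM13, a small chaperone of that route, had a log2 change of 1.33. ERV1, a sulfhydryl oxidase of the same space, was called lower (log2 change -1.499, adjusted p = 0.015), a call lost without 36 h replicate 1 (0.061) and 6 h replicate 2 (0.06), with adjusted p from the 19 alternatives between 0.00097 and 0.061. SAM35, of the outer membrane sorting complex, was called lower (log2 change -1.08, adjusted p = 0.039), a call lost without each of 36 h replicate 1, 36 h replicate 2, 6 h replicate 1 and 6 h replicate 2 (0.086 to 0.13) and under the first table of each sample (0.065) and the replicate block (0.052). Its adjusted p lay between 0.016 and 0.13 over the alternatives that tested it, which leave out the filter at 10 FPKM. For iron-sulfur cluster and haem synthesis, 11 of 38 tested members rose (28.9%) and 8 fell (21.1%), with a median log2 change of 0.26. When 6 h replicate 1 was left out, 8 rose and 7 fell (median 0.299). Leaving out other samples gave 5 falls without each of 36 h replicate 2 and 6 h replicate 2. YFH1, frataxin, had 307, 154 and 85.5 FPKM at 36 h, against 17.2, 18.97 and 11.9 FPKM at 6 h (log2 change 3.26, SE 0.42, adjusted p = 0.0003). HAP4, an activator of respiratory genes, had 87.5, 40.2 and 91.2 FPKM at 36 h, against 13.4, 19.4 and 18.5 FPKM at 6 h (log2 change 1.96, SE 0.34, adjusted p = 0.0016). HEM12 and HEM15, of haem synthesis, fell, HEM15 with 46.7, 30.1 and 38.5 FPKM at 36 h, against 143, 219.9 and 180.2 FPKM at 6 h (log2 change -2.21, SE 0.28, adjusted p = 0.00029) and HEM12 with a log2 change of -2.27.

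At the plasma membrane, 6 of 24 tested members rose and 2 fell, with a median log2 change of 0.33 in the list of ATPases and ion pumps. The share of rises, 25.0%, was near the 21.3% over all tested loci. On the 5 other samples alone, without 6 h replicate 1, 4 rose and 1 fell (median 0.36). These counts became 0 falls without each of 36 h replicate 2 and 6 h replicate 2. TOK1, a potassium channel, had 45.4, 45.3 and 51.1 FPKM at 36 h, against 7.89, 10.99 and 9.58 FPKM at 6 h (log2 change 2.21, SE 0.24, adjusted p = 0.00013), and HRK1, a kinase that activates the proton pump, rose (log2 change 1.66, adjusted p = 0.0017). PMA1, the proton pump, had 731, 273 and 972 FPKM at 36 h, against 1500.05, 1534 and 987 FPKM at 6 h (log2 change -1.18, adjusted p = 0.057) and passed without 36 h replicate 3 (0.022) and under 3 other alternatives (0.023 to 0.029), with adjusted p from the 19 alternatives between 0.022 and 0.2. CDC50 and PMR1 were called lower, both with a log2 change of -0.83. The CDC50 call was lost without each of 36 h replicate 2, 36 h replicate 3, 6 h replicate 1 and 6 h replicate 2 (0.065 to 0.099) and under the first table of each sample (0.093) and the replicate block (0.057), with adjusted p from the 19 alternatives between 0.0044 and 0.099. The PMR1 call was lost without 36 h replicate 2 (0.058), 6 h replicate 1 (0.058) and 6 h replicate 2 (0.078) and under the replicate block (0.059), with adjusted p from the 19 alternatives between 0.0095 and 0.078. For multidrug and detoxification transporters, 6 of 24 tested members rose (25.0%) and 3 fell (12.5%), with a median log2 change of 0.31. The shares over all tested loci were 21.3% and 19.5%. In the fit that omits 6 h replicate 1, 6 rose and 3 fell (median 0.35). They shifted to 1 fall without each of 36 h replicate 2, 6 h replicate 2 and 6 h replicate 3. BPT1, a vacuolar ABC transporter, had 38.7, 31.5 and 39.8 FPKM at 36 h, against 251, 532 and 504 FPKM at 6 h (log2 change -3.44, SE 0.33, adjusted p = 5.4e-05). PDR16, a phosphatidylinositol transfer protein, had 930.02, 811 and 1012 FPKM at 36 h, against 160.3, 276 and 264 FPKM at 6 h (log2 change 2.01, SE 0.298, adjusted p = 0.00068), and DTR1 had a log2 change of 1.99. AQR1 was called lower (log2 change -0.96, adjusted p = 0.019), a call lost without 36 h replicate 2 (0.068), 6 h replicate 2 (0.1) and 6 h replicate 3 (0.052), with adjusted p from the 19 alternatives between 0.002 and 0.1.

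In translation, 4 of 31 tested members rose and 13 fell, with a median log2 change of -0.6996 among aminoacyl-tRNA synthetases. Without 6 h replicate 1, 3 rose and 12 fell, with a median of -0.67. The counts moved to 2 rises without 6 h replicate 3, 5 falls without 36 h replicate 2, 3 falls without each of 36 h replicate 3 and 6 h replicate 2 and 6 falls without 6 h replicate 3. The named falls were cytosolic enzymes, DED81 for asparagine, with 108, 72.04 and 77.2 FPKM at 36 h, against 221, 391 and 335 FPKM at 6 h (log2 change -1.85, SE 0.305, adjusted p = 0.0012), and CDC60 for leucine, with a log2 change of -1.37. The named rises were mitochondrial enzymes, MSD1 for aspartate, with 49.4, 44.8 and 52.3 FPKM at 36 h, against 20.9, 20.8 and 13.6 FPKM at 6 h (log2 change 1.38, SE 0.26, adjusted p = 0.0024), and MSF1 for phenylalanine, with a log2 change of 1.02. Among initiation and elongation factors, 4 of 36 tested members rose and 3 fell, with a median log2 change of -0.1999. The fit without 6 h replicate 1 gave 6 rises, 2 falls and a median of -0.051. Other samples also moved these counts, to 2 rises without each of 36 h replicate 2 and 6 h replicate 3, 6 falls without 36 h replicate 1 and 1 fall without 36 h replicate 2. TIF6 and HCR1 rose, with log2 changes of 1.58 and 1.30. GCD1, a subunit of the exchange factor eIF2B, fell (log2 change -1.04, adjusted p = 0.0095). Its partner GCD2 was called lower (log2 change -1.07, adjusted p = 0.034), a call lost without each of 36 h replicate 2, 36 h replicate 3, 6 h replicate 1 and 6 h replicate 2 (0.061 to 0.12) and under the first table of each sample (0.059), with adjusted p from the 19 alternatives between 0.0027 and 0.12.

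For the nuclear pore and transport, 4 of 48 tested members rose and 13 fell, with a median log2 change of -0.49. Leaving out 6 h replicate 1 gave 4 rises, 11 falls and a median of -0.34. Counts changed to 2 rises without each of 36 h replicate 1, 6 h replicate 2 and 6 h replicate 3 and 8 falls without 6 h replicate 2. NUP84 had 13.4, 10.5 and 13.8 FPKM at 36 h, against 35.5, 47.8 and 32.4 FPKM at 6 h (log2 change -1.53, SE 0.26, adjusted p = 0.0014), and NSP1 had a log2 change of -1.41. The import receptors KAP122 and KAP123 rose, KAP122 with 71.6, 71.9 and 70.9 FPKM at 36 h, against 23.05, 27.4 and 21.99 FPKM at 6 h (log2 change 1.53, SE 0.23, adjusted p = 0.00073) and KAP123 with 79.6, 66.7 and 78.3 FPKM at 36 h, against 47.2, 10.2 and 7.04 FPKM at 6 h (log2 change 2.21, SE 0.55, adjusted p = 0.0094), 6 h replicate 1 of KAP123 being over 4-fold above the other 6 h samples. For RNA polymerase II and Mediator, 3 of 51 tested members rose and 9 fell, with a median log2 change of -0.38. With 6 h replicate 1 left out there were 3 rises and 8 falls (median -0.38). Single samples mattered, with 1 rise without each of 36 h replicate 1 and 6 h replicate 3 and 5 falls without 6 h replicate 2. NUT1 and SRB5, Mediator subunits, had log2 changes of -1.63 and -1.57, and SPT15, the TATA-binding protein, 1.00 (adjusted p = 0.0091). MED11 was called higher (log2 change 1.21, adjusted p = 0.018), a call lost without 36 h replicate 1 (0.063) and 6 h replicate 3 (0.076) and under the first table of each sample (0.096), with adjusted p from the 19 alternatives between 0.0055 and 0.096. For mRNA decay, 1 of 31 tested members rose and 5 fell, with a median log2 change of -0.48. There was 1 rise and 3 falls without 6 h replicate 1 (median -0.39). There were 3 falls without 36 h replicate 2 and 2 falls without 6 h replicate 2. PUF3, which binds transcripts of mitochondrial proteins, had 30.6, 53.5 and 63.03 FPKM at 36 h, against 16.8, 16.2 and 10.1 FPKM at 6 h (log2 change 1.67, SE 0.33, adjusted p = 0.003). SKI2, a helicase that acts with the exosome, fell (log2 change -1.29, adjusted p = 0.0029), and LSM7 fell (log2 change -1.08, adjusted p = 0.0096). The LSM7 call was lost under the first table of each sample (0.059), with adjusted p from the 19 alternatives between 0.0015 and 0.059. For the spliceosome, 11 of 60 tested members rose (18.3%) and 6 fell (10%), with a median log2 change of 0.22. Both shares were below the 21.3% and 19.5% of all tested loci. When 6 h replicate 1 was left out, 10 rose and 8 fell (median 0.16). SLU7 had 107, 52.8 and 37.9 FPKM at 36 h, against 8.87, 6.71 and 5.76 FPKM at 6 h (log2 change 2.93, SE 0.37, adjusted p = 0.00027), and SNU13, which also serves ribosomal RNA processing, had 901, 708 and 625 FPKM at 36 h, against 326, 96.9 and 74.3 FPKM at 6 h (log2 change 2.46, SE 0.48, adjusted p = 0.0031). PRP42 and SMD2 fell, with log2 changes of -1.89 and -1.54.

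Signalling lists were near the background. For glucose, PKA and TOR signalling, 8 of 40 tested members rose and 7 fell, with a median log2 change of 0.061. On the 5 other samples alone, without 6 h replicate 1, 8 rose and 6 fell (median 0.069). Leaving out other samples gave 4 falls without 36 h replicate 2 and 3 falls without 6 h replicate 2. MIG1, the repressor that acts while glucose is present, had 204, 88.8 and 130.4 FPKM at 36 h, against 21.4, 36.6 and 25.6 FPKM at 6 h (log2 change 2.25, SE 0.34, adjusted p = 0.00074), and MIG3 had a log2 change of 1.80. RTG2 and SNF4, of mitochondrial and of low-glucose signalling, fell, with log2 changes of -1.82 and -1.25. For mating and meiosis, 10 of 47 tested members rose and 10 fell, with a median log2 change of 0.15. In the fit that omits 6 h replicate 1, 8 rose and 11 fell (median 0.038). These counts became 6 rises without 36 h replicate 1 and 5 rises without each of 36 h replicate 3 and 6 h replicate 2. Its median ran from -0.026 to 0.22 with 1 sample left out at a time. STE18, the gamma subunit of the pheromone G protein, had 73.6, 76.9 and 38.4 FPKM at 36 h, against 3.98, 13.1 and 10.1 FPKM at 6 h (log2 change 2.73, SE 0.41, adjusted p = 0.00073), the opposite direction to STE3. SPS1 rose (log2 change 1.92, adjusted p = 0.0045) and SPO21 fell (log2 change -2.89, adjusted p = 0.0001), both genes of spore formation. For the ubiquitin system, 9 of 46 tested members rose and 7 fell, with a median log2 change of 0.044. Without 6 h replicate 1, 5 rose and 3 fell, with a median of 0.015. They shifted to 5 rises without each of 36 h replicate 1 and 6 h replicate 2, 3 rises without 6 h replicate 3, 2 falls without 36 h replicate 2 and 1 fall without 6 h replicate 2. UBP10 and MET30 rose, with log2 changes of 2.18 and 2.05, and DOA1 fell (log2 change -1.64, adjusted p = 0.0017). UBP12 was called lower (log2 change -1.01, adjusted p = 0.028), a call lost without each of 36 h replicate 1, 36 h replicate 2, 6 h replicate 1 and 6 h replicate 2 (0.061 to 0.086) and under the first table of each sample (0.076), with adjusted p from the 19 alternatives between 0.011 and 0.086.

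**Figure D4:**
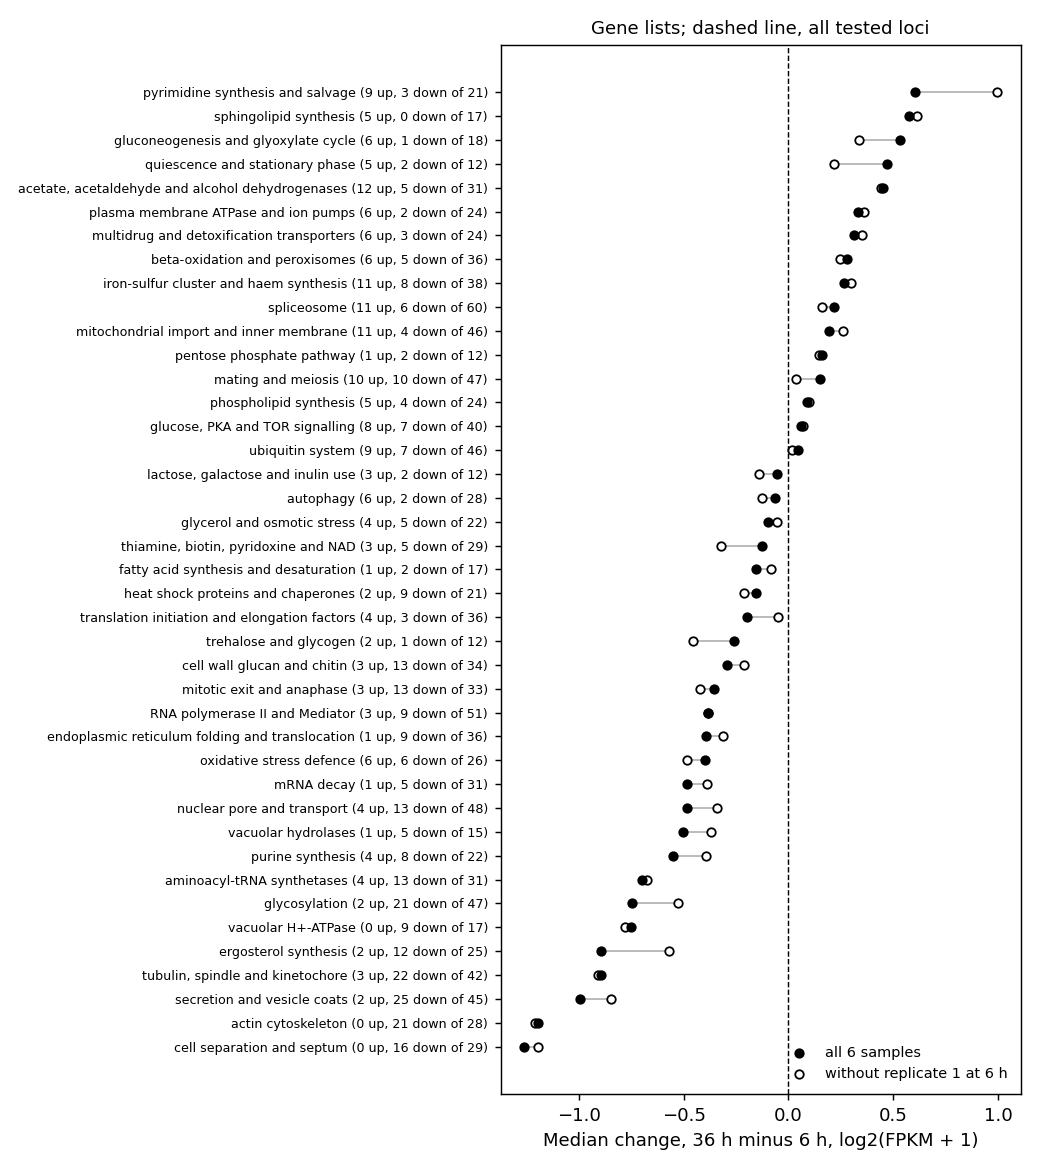
Median log2 change of the tested members of 41 gene lists, 36 h minus 6 h, with all 6 samples (filled circles) and without 6 h replicate 1 (open circles); the dashed line is the median of all tested loci, and each label gives the loci called higher (up) and lower (down) of those tested. The lists run from cell separation and septum at -1.26 to pyrimidine synthesis and salvage at 0.60, and the open circles shift most for pyrimidine and ergosterol synthesis.

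The 6 h samples were not equally alike. At 603 and 725 loci, 6 h replicate 1 differed at least 2-fold from replicates 2 and 3 on the log2(FPKM + 1) scale, while replicates 2 and 3 differed so at 127. The 36 h samples differed at 633, 558 and 382 loci. Replicate 1 was at least 2-fold above the mean of the other 6 h samples at 289 loci and at least 2-fold below it at 289. The middle 50% of its differences lay between -0.35 and 0.39 log2 units. Of the gene lists, it stood highest in ergosterol synthesis, as given above. Among the loci with the largest rises it was low at HSP26, with 3.63 FPKM in replicate 1 and 79.7 and 53.05 FPKM in the others, and at SPG4, with 3.6006 FPKM and 60.2 and 31.8 FPKM. At yciC, with 2.58 FPKM in replicate 1 and 2.12 and 8.74 FPKM in the others, it was not.

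The calls changed less when 6 h replicate 1 was left out than when any other sample was. It kept 1738 of the 2008 calls, 86.6%, lost 270 and gained 176, with 0 calls in the opposite direction. The 5 other fits with 1 sample left out kept 70.4% to 84.6% of the calls. Without replicate 2 at 6 h only 832 loci were called higher and 594 lower, with 594 calls lost and 12 gained. Without 36 h replicate 2 there were 656 falls, and without 36 h replicate 1 there were 1023. A set of 1274 loci, 702 higher and 572 lower, was called in the full comparison and in all 6 fits with 1 sample left out, 63.4% of the calls.

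**Figure D5:**
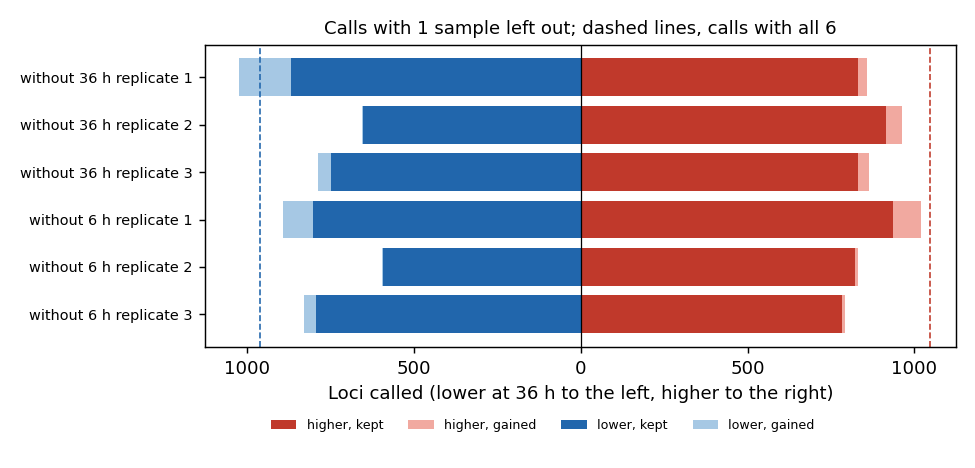
Number of loci called higher (to the right) and lower (to the left) at 36 h when 1 of the 6 samples was left out, split into calls also made with all 6 samples (dark) and calls gained (pale); dashed lines mark the 1048 higher and 960 lower with all 6. The bar without 6 h replicate 1 keeps the most, 1738 of 2008 calls, and the bar without 6 h replicate 2 has the fewest, 832 higher and 594 lower.

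Loci gained without 6 h replicate 1 are chosen by the removal of that sample, so its distance from the others there describes the choice. Its median difference from the other 6 h samples, without regard to sign, was 0.98 log2 units at the 176 gained loci, 0.38 at the 270 lost and 0.40 at the 1738 kept. The gained loci of highest mean level were KLMA_10040, ENO, KLMA_70391 and SNZ3. KLMA_70391 had 9883, 8725 and 5904 FPKM at 36 h, against 3856, 14581 and 19270.3 FPKM at 6 h (log2 change -0.36, adjusted p = 0.61), and passed the test without 6 h replicate 1 (0.045), with adjusted p from the 19 alternatives between 0.045 and 0.91. SNZ3, of vitamin B6 synthesis, had 2066, 1373 and 1855 FPKM at 36 h, against 1761, 4509.6 and 5045 FPKM at 6 h (log2 change -0.98, adjusted p = 0.081), and passed without 6 h replicate 1 (0.0063) and under array weights (0.0044), with adjusted p from the 19 alternatives between 0.0044 and 0.41. KLMA_10040 had 16597, 15196 and 12598 FPKM at 36 h, against 10758, 8453 and 3554 FPKM at 6 h (log2 change 1.099, adjusted p = 0.053), and passed without 6 h replicate 1 (0.024) and under 3 other alternatives (0.026 to 0.049), with adjusted p from the 19 alternatives between 0.024 and 0.24. ENO passed without 6 h replicate 1 (0.036) and under 3 other alternatives (0.0069 to 0.043), with adjusted p from the 19 alternatives between 0.0069 and 0.2. In KLMA_70391 and SNZ3, 6 h replicate 1 was below or within the range of the 36 h samples and the other 6 h samples were above it.

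The lost loci of highest mean level were KLMA_20427, RPS18A, RPS4B and RPS16B. KLMA_20427 had 8986, 7199.8 and 12456 FPKM at 36 h, against 2279.8, 5323 and 4847 FPKM at 6 h (log2 change 1.26, adjusted p = 0.024), and its call was lost without 36 h replicate 1 (0.053), 36 h replicate 3 (0.066) and 6 h replicate 1 (0.079), with adjusted p from the 19 alternatives between 0.013 and 0.079. The ribosomal proteins did not overlap between times, RPS4B having 2986, 2506 and 2288 FPKM at 36 h, against 5063, 4826 and 4326 FPKM at 6 h (log2 change -0.88, adjusted p = 0.026). Its call was lost without each of 36 h replicate 2, 36 h replicate 3, 6 h replicate 1 and 6 h replicate 2 (0.06 to 0.1) and under quantile normalization (0.14) and the replicate block (0.062), with adjusted p from the 19 alternatives between 0.0053 and 0.14. RPS18A and RPS16B averaged 3552 ± 1008 FPKM at 36 h and 6956 ± 1374 FPKM at 6 h and 2225 ± 820.2 FPKM at 36 h and 4499 ± 937 FPKM at 6 h (SD, n = 3 each). The RPS18A call was lost without each of 36 h replicate 2, 36 h replicate 3, 6 h replicate 1 and 6 h replicate 2 (0.059 to 0.13), with adjusted p from the 19 alternatives between 0.0029 and 0.13. The RPS16B call was lost without each of 36 h replicate 2, 36 h replicate 3, 6 h replicate 1 and 6 h replicate 2 (0.076 to 0.11) and under quantile normalization (0.06), with adjusted p from the 19 alternatives between 0.0031 and 0.11. In these ribosomal protein loci the 6 h replicate 1 value lay within 1.5-fold of at least 1 of the other 6 h samples.

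Of the loci named for the largest differences of 6 h replicate 1, KLMA_70333 was above 0 in every sample and the others were listed at 0 in some libraries. KLMA_10198 had 92.8 FPKM in that sample and was listed at 0 in the other 6 h samples, and at 36 h it had 0, 0 and 26.1 FPKM. KLMA_10792 had 0, 0 and 36.5 FPKM at 36 h, against 24.1, 6.44 and 0 FPKM at 6 h, and KLMA_70333 had 5.49, 3.92 and 8.19 FPKM at 36 h, against 121, 25.05 and 3.18 FPKM at 6 h (log2 change -1.83, adjusted p = 0.14). KLMA_70333 passed without 6 h replicate 3 (0.0029) and under the replicate block (0.017), with adjusted p from the 19 alternatives between 0.0029 and 0.46. In the other direction, KLMA_60220 was listed at 0 in replicate 1 and had 472 and 407 FPKM in the other 6 h samples, with 0 in every 36 h sample. The call of KLMA_60220 (adjusted p = 0.028) was lost without each of 36 h replicate 1, 36 h replicate 2, 36 h replicate 3, 6 h replicate 2 and 6 h replicate 3 (0.051 to 0.092) and under 3 other alternatives (0.23 to 0.27), with adjusted p from the 19 alternatives between 4e-07 and 0.27. KLMA_70088 had 0, 0 and 287 FPKM at 36 h, against 0, 1566 and 413 FPKM at 6 h and passed without 6 h replicate 1 (0.023) and under the replicate block (0.0079) and removal of the offset tables (0.027), with adjusted p from the 19 alternatives between 0.0079 and 0.91. KLMA_20763 had 0, 299 and 309 FPKM at 36 h, against 0, 456 and 216 FPKM at 6 h. An exact 0 beside such levels in replicate libraries can be a failed estimate, so a fitted log2 change of the loci listed at 0 is no measure of size.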

How the data were processed

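Per the labels' protocols, TruSeq V2 libraries were made from acid phenol extracts of RNA. Cuffdiff 2.2.1.5, Cufflinks 2.2.1.2, TopHat2 2.0.8, FastQC 0.10.1 and Trim Galore 0.4.3.1 are listed, per the submitters' processing notes, with no role for any of them. Genome build, annotation and use of strand: not given in the sources used here. Hence overlapping and antisense loci cannot be told apart. The authors deposited FPKM values per locus with lower and upper bounds, per the file headers, in 32 *K. marxianus* tables, 3 to 8 per sample. How the tables of a sample differ is not stated. They were treated as technical parts and averaged to 1 value per locus and sample, with the 36 values not marked OK left out. Fragments per locus were recovered from the FPKM bounds. Of values below 5.5 fragments, 90.27% to 97.35% came out whole within 0.02 in 28 tables. In 4 tables of 6 h replicate 2, at most 13.64% did, so their depth is unknown.

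Gene symbols were taken from RefSeq (assembly Kmar_1.0, of another strain). Its table held 5095 of the 5319 loci, 4352 of them with a symbol. Symbols shared by several loci, and carried by 206 loci in all, are given with their tag, and near-identical copies may share reads. Coordinates are those of the tables, identical to that assembly for 96.2% of matched loci.

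Loci with a mean of at least 1 FPKM were tested with limma 3.58.1 (R 4.3.3), 36 h minus 6 h, as log2(FPKM + 1) without rescaling, using an intensity trend and Benjamini-Hochberg adjustment at 0.05. This scale understates the change of low loci. The fit was tested on simulated data. The comparison, the 41 gene lists and the rule for named loci were chosen with earlier results of these data known. Lists are described by counts and medians, with no test of their own. The loci named were the largest rise and fall per chromosome among called loci whose higher group averaged 50 FPKM or more, up to 2 rises and 2 falls per list, all with a symbol of 1 locus and no overlap between times, the 10 highest at each time, the loci with the largest dependence on 6 h replicate 1, and a set of symbols given whatever their values. Alternatives were pseudocounts of 0.1 and 5, no filter and a filter at 10 FPKM, median and quantile scaling, the median over tables or the first table, no trend, array weights, voom on the recovered fragments, a replicate block and each sample left out. Leaving out the 2 tables with offset short loci was added after seeing the data. A locus below the filter of an alternative was not tested in it. Deviations of same-numbered samples correlated at 0.043, -0.074 and -0.23 for numbers 1, 2 and 3, against -0.13 to 0.20 for samples of unlike numbers. These values gave no sign of pairing, but with 3 samples a group they cannot settle whether the numbers pair the samples.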

Additional observations from a re-analysis of the deposited data

How the results depend on the processing

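The number of loci lower at 36 h, 960, was 594 without 6 h replicate 2, and ran from 594 to 1023 with 1 sample left out at a time. The number higher, 1048, ran from 791 to 1021. Every other setting kept both counts within 1.5 times, the most being 1222 higher and 1397 lower with array weights and the fewest 926 and 764 with the first table of each sample. Which direction held more loci depended on the setting. Falls outnumbered rises with median scaling (1069 higher, 1182 lower), quantile normalization (1093 and 1158) and voom (1070 and 1118). The same held with array weights, without 36 h replicate 1 and without 6 h replicate 3. Whether the replicate numbers pair the samples is not known. With a replicate block, 984 loci were higher and 882 lower, 901 and 783 of them at least 2-fold.

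Of 166 called loci among 203 named, 131 kept their call under every one of the 19 alternatives that tested them, 35 lost it under at least 1, 32 of them with a sample left out, and 0 changed sign. Signs turned only at loci that had not passed the test. With array weights the log2 change was 0.030 for FBA1, 1.83 for KLMA_10198, 0.12 for KLMA_10792, 0.037 for ACC1, -0.30 for LAC12 (KLMA_30728) and -0.097 for LAC12 (KLMA_80005). With the first table it was 0.66 for KLMA_10792 and -0.16 for LAC12 (KLMA_30728). For KLMA_20763 it was 5.65 with the median over tables, 0.081 with quantile normalization, 1.63 with voom and 0.40 without the offset tables. With 1 sample left out, the changes ran from -0.72 to 0.12 for RPS28A, -0.17 to 0.091 for FBA1, -1.07 to 0.091 for KLMA_70391, -2.18 to 1.59 for KLMA_10198, -2.51 to 0.30 for KLMA_10792, -2.80 to 2.72 for KLMA_20763, -0.43 to 0.034 for TPS2, -0.63 to 0.22 for ERG11, -0.29 to 0.47 for LAC12 (KLMA_30728) and -0.047 to 0.39 for LAC12 (KLMA_80005). Of these loci, KLMA_10198, KLMA_10792 and KLMA_20763 were listed at 0 in some libraries, so their fitted changes are no measure of size. The 5.65 of KLMA_20763 passed the test (limma adjusted p = 0.028). The cause was not tested. Medians over chromosomes, classes and lists kept their sign under all alternatives in 34 of 60 cases, among them 31 of 41 lists. With 3 samples a group and an unknown part of the depth of 6 h replicate 2, changes below the spread between samples were not detectable.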

Other observations

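The histone loci, set side by side after their values were seen, did not move alike. HTB2 and HTA2, neighbours on chromosome 6 (266180 to 266578 and 267552 to 267944), encode histones H2B and H2A. HTB2 had 20.9, 12.9 and 11.9 FPKM at 36 h, against 2406, 1586 and 811 FPKM at 6 h. HTA2 had 89.6, 74.8 and 76.1 FPKM at 36 h, against 1765, 1911 and 2344 FPKM at 6 h (limma log2 change -4.62, SE 0.26, adjusted p = 5.6e-06). HHF2 and HHT2, neighbours on chromosome 8 for histones H4 and H3, fell as well, with log2 changes of -5.23 and -4.61. Their ranges over the 19 alternatives were -5.48 to -4.93 and -4.84 to -4.39.

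The other copies of these genes stayed near their 6 h level or changed far less. HTA1 and HTB1, neighbours on chromosome 2, had log2 changes of -1.01 (adjusted p = 0.055) and -0.41 (adjusted p = 0.38). HTB1 had 2630, 1897 and 1446 FPKM at 36 h, against 3301, 3004 and 1700 FPKM at 6 h, with overlapping groups. HTA1 had 2104, 1714 and 1409 FPKM at 36 h, against 2292, 3012 and 5989.6 FPKM at 6 h. HTA1 passed the test without 6 h replicate 1 (log2 change -1.30, adjusted p = 0.022), with array weights and with voom, with adjusted p between 0.017 and 0.20 over the alternatives. HHT1, an H3 locus on chromosome 6, had 14151, 6765 and 5506 FPKM at 36 h, against 8408, 12585 and 9147 FPKM at 6 h (log2 change -0.29, adjusted p = 0.57). HTZ1, the variant H2A.Z, had a log2 change of -0.19 (adjusted p = 0.61). Reads that fit several near-identical copies could be split among them by the counting, and the size of that effect is unknown here.

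Of the tested loci, 40 were listed at 0 in at least 1 sample and had 10 FPKM or more in another. Their median length was 364.5 nt, and 34 carried no symbol. Within this set, 30, 20 and 10 were at 0 in 36 h replicates 1, 2 and 3, against 25, 16 and 25 in the 6 h replicates. Of the 40, 6 were at 0 in all 36 h samples, 11 in all 6 h samples and 23 in neither whole group. The test called 11 of the 40, a smaller share than the 2008 called of all 4929 tested loci. The 11 included BET5, NRM1 and DUT1 as lower and AGA2 as higher. NRM1, a repressor of transcription at the start of the cell cycle, had 0, 0.32 and 0.67 FPKM at 36 h, against 45.3, 34.5 and 22.05 FPKM at 6 h. BLI1 and KLMA_50184, also called lower, were at 0 in 36 h replicates 1 and 2 but had 167 and 366 FPKM in 36 h replicate 3, against 96.4 to 180 FPKM and 200 to 483 FPKM at 6 h. An exact 0 in these tables can be a failed estimate.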
